A study of Mus musculus with 9 samples.

Results

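The genes described here are 33 enzymes, carriers and signals of fatty acid oxidation and ketogenesis, given as a list of names and found as rows of a liver expression table of 24341 genes. They cover the uptake and activation of fatty acids, the carnitine shuttle, the mitochondrial and peroxisomal spirals, the transfer of electrons, ketone body enzymes, thioesterases and 2 genes that respond to fasting. The table held all 33 genes, and 31 of them had an estimate in every mouse and were tested.

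Bulk liver of wild-type (WT) C57BL/6 mice was profiled 48 hours after 1 of 2 treatments. The anti-CD40 group was 3 mice (mice 2, 5 and 9) given FGK45, an antibody that activates the immune receptor CD40, and the control group was 6 mice (mice 3, 4, 7, 8, 11 and 12) given PBS. Each library was made from 1 mouse with a 3′ mRNA-Seq kit. The study asked how anti-CD40 changes the liver, and the age and sex of the 9 mice were not in the labels.

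As background, fatty acids enter hepatocytes, are bound by a fatty acid binding protein and are activated to coenzyme A (CoA) esters. Carnitine carries them into mitochondria, where each turn of the beta-oxidation spiral removes acetyl-CoA, while peroxisomes shorten the longest chains. In fasting, liver turns surplus acetyl-CoA into ketone bodies for other tissues, and the nuclear receptor PPARα drives much of this gene programme.

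Expression was given as FPKM, read fragments scaled to the length of the gene and the size of the library. Changes are differences of mean log2(FPKM + 0.1), anti-CD40 minus control, tested with limma over 13807 genes with a mean of at least 0.1 FPKM, and a gene was called lower or higher at a Benjamini-Hochberg adjusted p under 0.05. The added 0.1 understates changes of genes with very low FPKM. The FPKM table gives no absolute read depth, but the size of 1 read placed the relative depth of the libraries between 0.870 and 1.13. The 3 anti-CD40 mice were more like each other (Pearson r across genes of 0.970 to 0.978, genes not being independent replicates) than like any control mouse (0.897 to 0.921).

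Some libraries stood apart in markers of other tissues. Control mice 4 and 7 had 26.3 and 35.0 FPKM of Adipoq, a fat cell hormone, against 0.270 to 3.09 in the other 7 libraries, and 277 and 302 FPKM of Cfd against 1.08 to 19.8. Anti-CD40 mouse 5 had 223 FPKM of Cela3b, a pancreatic enzyme, against at most 0.597 elsewhere, and control mouse 4 had 50531 FPKM of summed erythroid genes against 4176 to 14320 in the anti-CD40 mice and at least 7494 in the other controls. Their part in the results was not tested beyond leaving these libraries out.

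Calls among the members were mostly lower after anti-CD40. Of the 31 tested, 14 were called lower, 3 were called higher (Crat, Pdk4 and Fgf21) and 14 did not pass the threshold. Over all genes tested, 21.7% were called lower and 23.5% higher. The estimate was negative for 26 members and positive for 5, and the median log2 fold change was -0.67 over the members and 0.01 over all genes. In 12 members every anti-CD40 mouse lay below every control mouse, against 19.6% of all genes, and in 2 members every anti-CD40 mouse lay above, against 22.7% of all genes. Such a separation by itself gives the smallest exact permutation p that 84 assignments of 3 and 6 labels allow (0.0238, 2-sided). For these 14 members that p therefore only restates the lack of overlap. Hepatocyte markers were called lower in 17 of 19 cases in the same livers, and in bulk tissue fewer hepatocytes and less RNA of these genes per hepatocyte cannot be told apart.

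Level and scaling bear on those counts. Genes with a mean of at least 100 FPKM were called lower in 526 of 991 cases (53.1%), and members at that level in 11 of 15. Without control mice 4 and 7, 20 members were called lower and 3 higher, with a median of -0.74, while 24.3% and 25.9% of all genes were called. Without anti-CD40 mouse 5, 11 members were called lower and 4 higher, while 18.1% and 19.8% of all genes were called. The serum amyloid A (Saa) genes, which encode abundant acute phase proteins, were also left out and each library rescaled by 1 factor. The median of all genes then moved to 0.35 and that of the members to -0.30. Such a factor shifts nearly all genes alike, so the distance between these medians (-0.65) could hardly change and is no check on the members. Under that scaling 8 members were called lower and 4 higher, while 11.9% and 40.7% of all genes were called. That put 66.7% of the members' calls lower against 82.4% as deposited, and the estimate was positive for 12 members in place of 5. Quantile normalization can change the distance between the medians, and with it the distance was -0.23 against -0.67 as deposited. There 9 members were called lower and 3 higher, while 25% and 21.7% of all genes were called.

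**Figure D1:**
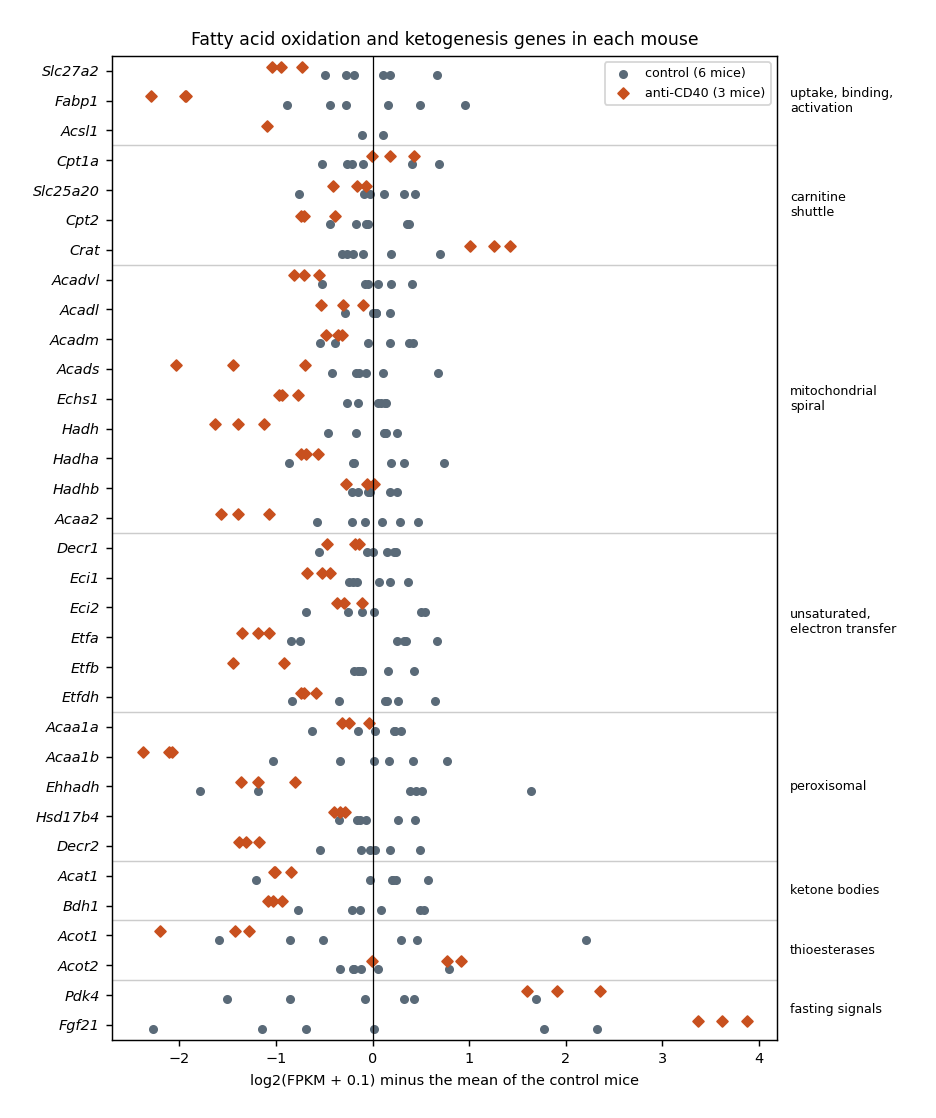
Each row is a member, grouped by role, and each point a mouse, on the scale of log2(FPKM + 0.1) minus the mean of the control mice (0, black line). Anti-CD40 mice (diamonds) lie left of every control mouse (circles) in 12 tested members, most widely in Acaa1b and Fabp1, and right of every control mouse in Crat and Fgf21. Acsl1 and Etfb lack some points because the estimate failed in those libraries.

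Both tested members of fatty acid uptake and binding were called lower, as were 21.7% of all genes tested. Fabp1 (mm10, chr6:71199888-71205023) encodes the liver fatty acid binding protein. After anti-CD40 its level was 4189 FPKM in mouse 2, 3278 in mouse 5 and 4209.6 in mouse 9, and the lowest, median and highest controls were at 8682, 15581 and 31253 FPKM. The highest anti-CD40 mouse was below the lowest control mouse, control mouse 4. The log2 fold change was -2.05 (SE 0.36, adjusted p = 0.000917), a 4.15-fold lower level. Slc27a2, a fatty acid transporter with very long-chain acyl-CoA synthetase activity, was 46.0 ± 5.13 FPKM (SD, n = 3) against 89.1 ± 27.0 (SD, n = 6). Its fall of 0.91 on the log2 scale had an adjusted p of 0.00753 and the groups did not overlap, but with the Saa genes left out the adjusted p was 0.0746.

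Acsl1, the main long-chain acyl-CoA synthetase of liver, had failed estimates in 6 of 9 mice. The remaining values were 81.9 FPKM in anti-CD40 mouse 2, and 189 and 163 FPKM in control mice 3 and 4. A fit that treated failed estimates as missing gave -1.10 (adjusted p = 0.0217), which rests on 1 mouse against 2.

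Promoter windows from RefSeq (GRCm38.p6, 250 bases before to 50 after the start) were found for 28 of the 33 members. They were searched on both strands for AGGTCA followed, after 1 base of any kind, by AGGTCA again, the direct repeat to which PPARα binds with its partner. No member held it exactly, as 0.0396% of 32851 windows did. With up to 1 mismatch it was found in Fabp1 alone among the members (0.554% of all windows), and with up to 2 in Echs1, Etfa, Fabp1 and Slc25a20, or 4 of 28 members (3.86% of all windows). The STAT motif TTCCNGGAA was in no member window (1.15% of all windows). These are matches of letters in a short window, with no measure of binding. The 250 bases before the start are shown for Fabp1, the member with the closest match, in capitals, and for the members with the largest fall and the largest rise, Acaa1b and Fgf21, which hold none. Fabp1 lies on the plus strand (chr6:71199629-71199878) and its match, read on the minus strand, starts at position -67. Acaa1b (chr9:119157094-119157343) and Fgf21 (chr7:45615491-45615740) lie on the minus strand.
Fabp1: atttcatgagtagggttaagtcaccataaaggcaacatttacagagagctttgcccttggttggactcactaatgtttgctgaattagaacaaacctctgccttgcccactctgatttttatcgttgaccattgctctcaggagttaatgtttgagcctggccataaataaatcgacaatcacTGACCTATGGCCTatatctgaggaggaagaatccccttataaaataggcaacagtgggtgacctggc
Acaa1b: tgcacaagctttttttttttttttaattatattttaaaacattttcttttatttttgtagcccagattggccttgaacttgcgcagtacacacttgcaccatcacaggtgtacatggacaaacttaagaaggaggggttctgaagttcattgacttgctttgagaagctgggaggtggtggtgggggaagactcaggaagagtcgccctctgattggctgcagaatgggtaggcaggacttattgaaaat
Fgf21: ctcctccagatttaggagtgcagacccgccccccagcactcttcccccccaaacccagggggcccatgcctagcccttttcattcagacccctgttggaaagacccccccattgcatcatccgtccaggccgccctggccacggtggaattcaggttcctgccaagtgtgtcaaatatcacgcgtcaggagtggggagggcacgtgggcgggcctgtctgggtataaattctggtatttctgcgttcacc
The matches with 2 mismatches, in the orientation of the gene, start at -83 in Echs1, -77 in Etfa and 6 in Slc25a20.
Echs1: AGGTCACGGGTCC
Etfa: TTACCTTTGCCCT
Slc25a20: AGGTGAAAGGTCG
Of these 4 genes Fabp1, Echs1 and Etfa were called lower, and Slc25a20 was not called.

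The carnitine shuttle moved in both directions. Cpt1a (chr19:3323301-3385733) encodes the outer-membrane carnitine palmitoyltransferase, the regulated entry step of mitochondrial oxidation. Its level was 21.5, 24.4 and 29.0 FPKM in the anti-CD40 mice and 14.97, 19.3 and 34.8 FPKM at the lowest, median and highest control. The groups overlapped fully, and the log2 fold change of 0.20 (SE 0.25, adjusted p = 0.535) did not pass. Slc25a20, the carnitine-acylcarnitine carrier of the inner membrane, was 48.5 ± 5.66 against 57.9 ± 15.1 FPKM (log2 fold change -0.22, adjusted p = 0.474). Its change was -0.43 without control mice 4 and 7 (adjusted p = 0.0348), but 0.15 with the Saa genes left out and 0.08 with quantile normalization.

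Cpt2, which frees the acyl-CoA inside the mitochondrion, was called lower at 51.7 ± 7.15 against 80.2 ± 17.5 FPKM (log2 fold change -0.61, adjusted p = 0.0202). Its groups overlapped, since anti-CD40 mouse 9 at 59.9 FPKM was above control mouse 4 at 57.7. It was no longer called without anti-CD40 mouse 2 (adjusted p = 0.0795) or 5 (0.0806), and with the Saa genes left out (0.251).

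Crat (chr2:30392254-30415748) encodes carnitine acetyltransferase, which buffers short-chain acyl groups. Its 3 anti-CD40 values were 13.4 FPKM in mouse 9, 11.9 in mouse 2 and just over 10 in mouse 5, and its controls were at 3.94, 4.43 and 8.05 FPKM for the lowest, median and highest control. All anti-CD40 mice were above all controls, of which mouse 11 came closest. The log2 fold change was 1.23 (SE 0.22, adjusted p = 0.00116), a 2.34-fold higher level. The deposited locus of Crat is also that of Dolpp1, so reads of the pair may have been divided between them.

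Within the mitochondrial spiral 5 of 9 members were called lower and none higher, with a median of -0.69. Over all genes tested 21.7% were called lower and 23.5% higher. Among genes with a mean of at least 100 FPKM, a level that several of these members reached, 53.1% were called lower. Hadh (chr3:131233420-131272101), the short-chain 3-hydroxyacyl-CoA dehydrogenase, had the smallest adjusted p of the members. It was 130.5, 110.3 and 157 FPKM in the anti-CD40 mice and 248, 373 and 407 FPKM at the lowest, median and highest control. The groups were far apart, and the log2 fold change was -1.38 (SE 0.17, adjusted p = 0.000119).

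Acaa2, the mitochondrial 3-ketoacyl-CoA thiolase that ends each turn of the spiral, was 245, 217 and 307 FPKM in the anti-CD40 mice and 433, 650.2 and 893 FPKM at the lowest, median and highest control. No anti-CD40 mouse reached the lowest control, and the log2 fold change was -1.35 (SE 0.22, adjusted p = 0.000593). Echs1, the short-chain enoyl-CoA hydratase, was 90.6 ± 6.72 FPKM against 169 ± 18.6, with a change of -0.89 (SE 0.12, adjusted p = 0.000177) and no overlap.

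The acyl-CoA dehydrogenases, which take the first step of each turn for chains of different length, did not share 1 size of change. Acads, for short chains, was 97.8, 164 and 64.8 FPKM in the anti-CD40 mice against 199, 248 and 425 FPKM at the lowest, median and highest control. It varied most among the anti-CD40 mice but stayed below every control, at -1.39 (SE 0.29, adjusted p = 0.00293). Acadvl, for very long chains, was 99.9 ± 9.28 against 164 ± 34.1 FPKM, a change of -0.69 with an adjusted p of 0.00967 and no overlap. With the Saa genes left out its adjusted p was 0.117.

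Acadm, for medium chains, was 132 ± 7.74 against 178 ± 47.2 FPKM (-0.38, adjusted p = 0.177), and Acadl, for long chains, was 167 ± 24.8 against 206 ± 20.7 FPKM (-0.31, adjusted p = 0.0732). Both overlapped between the groups. Acadm was called lower without control mice 8 and 12 (-0.62, adjusted p = 0.00595), the controls with its 2 lowest values. It was at -0.30 without control mouse 11, its highest control (adjusted p = 0.281). With the Saa genes left out it was at -0.02, and with quantile normalization at 0.03. Acadl was called lower without control mouse 4 (-0.37, adjusted p = 0.0222) or anti-CD40 mouse 2 (-0.42, adjusted p = 0.0478). Its value was -0.20 without anti-CD40 mouse 5 (adjusted p = 0.296), and 0.05 with the Saa genes left out.

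Hadha and Hadhb encode the subunits of the trifunctional protein, which runs the later steps for long chains. The deposited locus of Hadha is also that of 3110082J24Rik and Gareml, so reads may have been divided among them. Hadha was 41.9 ± 2.61 against 70.5 ± 25.6 FPKM (-0.67, adjusted p = 0.0797), and control mouse 4, at 36.5 FPKM, lay below all anti-CD40 mice. Without control mouse 4 it was called lower (-0.84, adjusted p = 0.00738). Over the fits that left out 1 mouse its change ran from -0.84 to -0.52. Hadhb was 28.7 ± 2.90 against 31.0 ± 4.05 FPKM (-0.11, adjusted p = 0.529), and 35.4% of its 50-base windows near the 3′ end also occur in Gm13910 or Gm9108, which makes its value uncertain. With the Saa genes left out it was at 0.26.

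**Figure D2:**
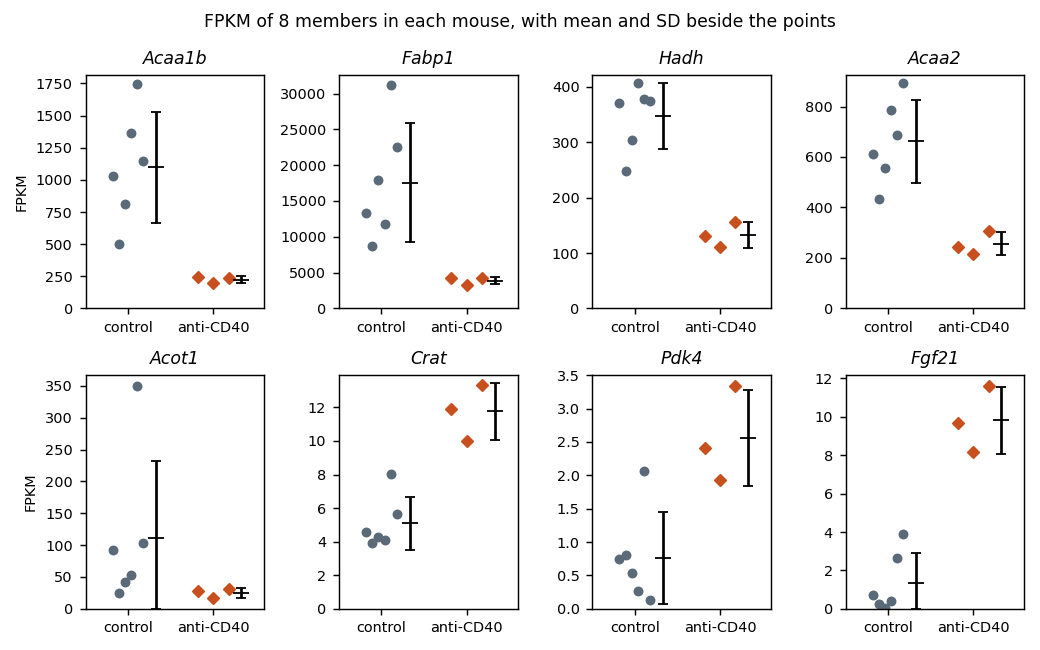
FPKM of 8 members in each control (circles) and anti-CD40 (diamonds) mouse on linear axes starting at 0, with the mean and SD beside the points (n = 6 and 3; bars cut at 0). Acaa1b, Fabp1, Hadh and Acaa2 are lower and Crat and Fgf21 higher in every anti-CD40 mouse, while Acot1 and Pdk4 overlap, with control mouse 11 highest among the controls in both.

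Among the helpers for unsaturated chains and electron transfer, 2 of 5 tested members were called lower, beside 21.7% of all genes. Etfa, a subunit of the electron transfer flavoprotein that takes electrons from the dehydrogenases, was 58.3, 63.1 and 51.9 FPKM in the anti-CD40 mice. In the controls it was 74.1 FPKM at the lowest (mouse 8), 163 at the median and 211 at the highest. Control mouse 12, at 79.0 FPKM, lay near mouse 8, all anti-CD40 mice were below both, and the change was -1.20 (SE 0.33, adjusted p = 0.0120). With the Saa genes left out the adjusted p was 0.0714.

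Etfb, the other subunit, had no estimate in anti-CD40 mouse 9. The values of 487 and 702 FPKM in mice 2 and 5 lay below the 1162 to 1784 FPKM of the controls, and the fit with that value missing gave -1.18 (SE 0.21, adjusted p = 0.00143). Of its 50-base windows near the 3′ end, 58.1% also occur in Gm45233, so its level is uncertain. Etfdh, which passes the electrons on to ubiquinone, was 17.6 ± 1.04 against 29.6 ± 9.79 FPKM (-0.68, adjusted p = 0.0624). Control mouse 8, at 15.8 FPKM, was below all anti-CD40 mice, and without it Etfdh was called lower (-0.85, adjusted p = 0.00675). Without control mouse 11, its highest control, the change was -0.55 (adjusted p = 0.0942).

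Eci1, a mitochondrial enoyl-CoA isomerase, was called lower at 81.7 ± 6.70 against 121 ± 21.0 FPKM (-0.55, adjusted p = 0.0121). Its groups did not overlap, but it was no longer called without anti-CD40 mouse 5 (adjusted p = 0.0579) and with the Saa genes left out (0.373). Its relative Eci2 (-0.26, adjusted p = 0.428) and the mitochondrial dienoyl-CoA reductase Decr1 (-0.27, adjusted p = 0.246) overlapped between the groups. With the Saa genes left out both took the other sign, at 0.11 and 0.10. Without control mouse 4, Decr1 was called lower (-0.38, adjusted p = 0.0252), and without anti-CD40 mouse 5 it was at -0.16 (adjusted p = 0.567).

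Peroxisomal members held the largest fall. Acaa1b (chr9:119148043-119157093), a peroxisomal 3-ketoacyl-CoA thiolase, was 242, 196 and 236 FPKM in the anti-CD40 mice and 498, 1089 and 1742 FPKM at the lowest, median and highest control. All anti-CD40 mice were below control mouse 4, the lowest control, and the change was -2.19 (SE 0.33, adjusted p = 0.000358), a 4.56-fold lower level. Decr2, the peroxisomal dienoyl-CoA reductase, was 33.5, 35.3 and 38.7 FPKM in the anti-CD40 mice and 60.2, 87.7 and 123 FPKM at the lowest, median and highest control. It did not overlap either, at -1.29 (SE 0.19, adjusted p = 0.000321).

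The other 3 peroxisomal members were not called. Acaa1a, a close relative of Acaa1b, was 70.2 ± 7.13 against 82.3 ± 17.8 FPKM (-0.20, adjusted p = 0.428). Hsd17b4, the D-bifunctional protein, was 24.7 ± 0.965 against 31.9 ± 6.79 FPKM (-0.34, adjusted p = 0.123). With the Saa genes left out they were at 0.16 and 0.02. Ehhadh, the L-bifunctional protein, was 4.85, 5.50 and 7.25 FPKM in the anti-CD40 mice, within controls that ran from 3.59 (mouse 8) to 39.6 FPKM (mouse 11). Its change of -1.12 (SE 0.63) had an adjusted p of 0.177. Without control mouse 8, its lowest control, it was -1.48 (adjusted p = 0.0399), and without control mouse 11, its highest, -0.79 (adjusted p = 0.268).

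Both ketone body members were called lower, beside 21.7% of all genes. Bdh1 (chr16:31422297-31458901), which turns acetoacetate into 3-hydroxybutyrate, was 63.1, 65.3 and 69.6 FPKM in the anti-CD40 mice and 78.2, 132 and 193 FPKM at the lowest, median and highest control. The groups did not overlap, and the change was -1.02 (SE 0.26, adjusted p = 0.00812). Acat1, the acetoacetyl-CoA thiolase, was 87.5, 98.5 and 87.8 FPKM in the anti-CD40 mice and 76.8, 205 and 265 FPKM at the lowest, median and highest control. Control mouse 8 was below all anti-CD40 mice, and the change was -0.96 (SE 0.32, adjusted p = 0.0315, exact permutation p = 0.0952). The Acat1 call was the least stable, since it was lost when any of anti-CD40 mice 2, 5 or 9 or control mice 3, 7 or 11 was left out (adjusted p from 0.0554 to 0.0951).

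Of 8 tested ketone body genes outside the members, 3 were lower and 2 higher, beside 21.7% and 23.5% of all genes. Bdh2, a cytosolic dehydrogenase, was 4.91 ± 0.833 against 28.5 ± 7.28 FPKM (-2.48, adjusted p = 1.11e-05). Oxct1, the ketone-using transferase that hepatocytes have little of, was 16.7 ± 0.955 against 7.49 ± 2.52 FPKM (1.21, adjusted p = 0.00331). Slc16a6, a transporter for ketone body export, was 12.1 ± 2.18 against 4.30 ± 1.64 FPKM (1.55, adjusted p = 0.00186). Its deposited locus is wide (chr11:109440078-109573329), and whether other genes share it was not looked up.

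The thioesterases Acot1 and Acot2, which split acyl-CoA in the cytosol and the mitochondrion, did not pass. Acot1 was 28.1, 16.3 and 31.0 FPKM in the anti-CD40 mice and 25.04, 72.6 and 350.0 FPKM at the lowest, median and highest control. Control mouse 4 lay among the anti-CD40 mice and control mouse 11 far above the rest, and the change was -1.63 (SE 0.68, adjusted p = 0.0719). Without control mouse 4 it was -1.95 (adjusted p = 0.0221). Over the fits that left out 1 mouse it ran from -1.95 to -1.19. Acot2 was 4.55 ± 1.43 against 3.06 ± 1.07 FPKM (0.56, adjusted p = 0.121), and it was called higher without anti-CD40 mouse 5 (0.84, adjusted p = 0.0384), without control mouse 11 (0.72, adjusted p = 0.0226), and with the Saa genes left out (0.92, adjusted p = 0.0182). Without anti-CD40 mouse 2 it was at 0.38 (adjusted p = 0.38).

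Both genes that respond to fasting were called higher, beside 23.5% of all genes. Fgf21 (chr7:45613890-45615490) encodes a liver hormone of fasting and stress. After anti-CD40 it reached 9.69 FPKM in mouse 2, 8.16 in mouse 5 and 11.6 in mouse 9, against 0.707, 0.262, 0.0651, 0.396, 2.64 and 3.89 FPKM in control mice 3, 4, 7, 8, 11 and 12. All anti-CD40 mice were above all controls, and the controls themselves spread widely, with mice 11 and 12 highest. The smallest whole read numbers that fit these values, within 0.1 read, were 159, 126 and 167 reads in the anti-CD40 mice and 10, 4, 1, 5, 37 and 52 in the controls. Its log2 fold change of 3.62 (SE 0.88, adjusted p = 0.00688) was the largest of the members, and the 95% interval ran from 1.66 to 5.57.

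Pdk4 (chr6:5483351-5496278) encodes a kinase that shuts pyruvate dehydrogenase and so spares glucose while fat is burned. It was 2.42, 1.93 and 3.34 FPKM in the anti-CD40 mice and 0.137, 0.638 and 2.07 FPKM at the lowest, median and highest control. Control mouse 11 was above anti-CD40 mouse 5, so the groups overlapped. The change was 1.95 (SE 0.57, adjusted p = 0.0181), and it was no longer called without anti-CD40 mouse 2 (0.0549) or 9 (0.0735).

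**Figure D3:**
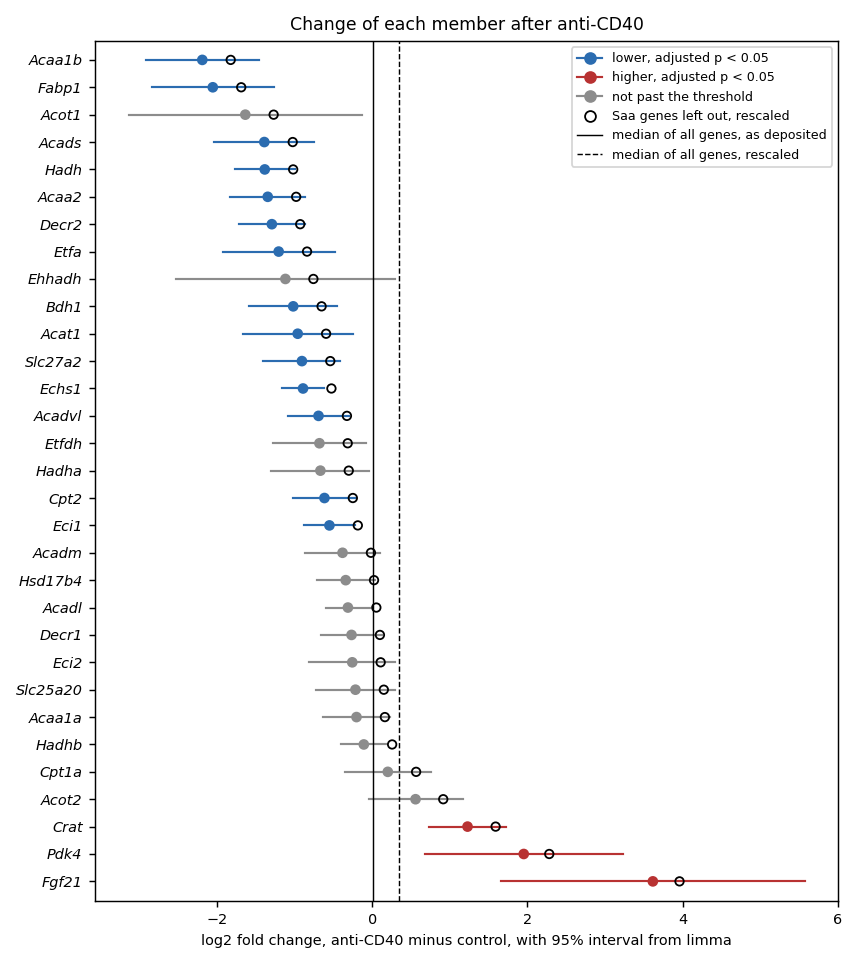
Log2 fold change (anti-CD40 minus control) of the 31 tested members with the 95% interval from limma. Blue marks 14 called lower, red 3 called higher and grey 14 not past the threshold, and open circles give the values with the Saa genes left out and rescaled, where the median of all genes (dashed line) is 0.35 rather than 0.01 (solid line).

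Pairs of related members were compared as a log2 ratio within each mouse, which no scaling of a library alters beyond the added 0.1. Of 5 pairs, 3 differed between the groups with no overlap. The log2 ratio of Acaa1b to Acaa1a was 1.907 in mouse 2, 1.529 in mouse 5 and 1.595 in mouse 9 of the anti-CD40 group, and 3.26 to 4.20 in the controls, a difference of -1.99 (SE 0.21, exact permutation p = 0.0238, adjusted over the 5 pairs 0.0397). That of Acot1 to Acot2 was 2.30 to 2.58 against 3.38 to 6.05, a difference of -2.19 (SE 0.61, exact permutation p = 0.0238, adjusted 0.0397). That of mitochondrial Decr1 to peroxisomal Decr2 was 1.29 to 1.69 against 0.18 to 0.72, a difference of 1.03 (SE 0.13, exact permutation p = 0.0238, adjusted 0.0397).

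The log2 ratio of Hadha to Hadhb (difference -0.56, SE 0.29, exact permutation p = 0.0952, adjusted 0.119) and of Eci1 to Eci2 (-0.29, SE 0.28, exact permutation p = 0.286) overlapped between the groups. Near-identical 3′ ends limit some of these ratios, and the shared locus of Hadha limits its ratio to Hadhb. Of 50-base windows in the last 500 bases of each transcript, 38.8% of those of Acaa1b also occur in Acaa1a, 31.6% of those of Acaa1a occur in Acaa1b, and 7.21% of those of Acot1 occur in Acot2, so reads could have been assigned to the relative.

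**Figure D4:**
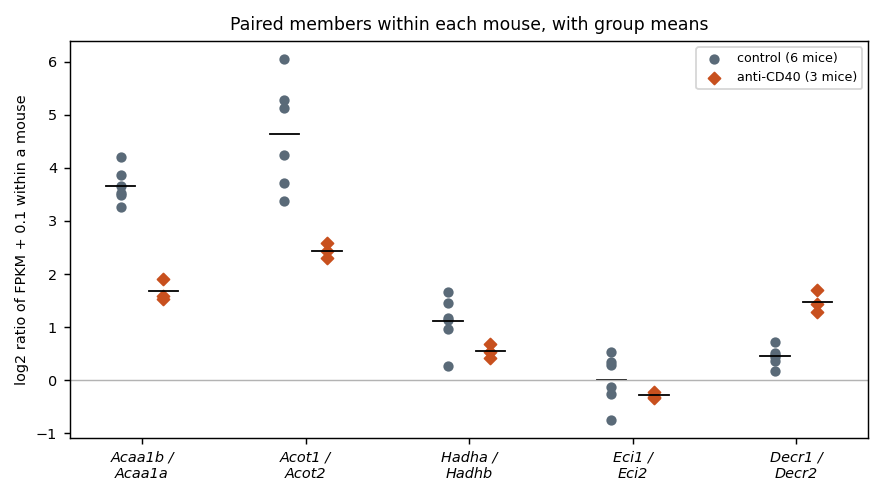
Log2 ratio of FPKM + 0.1 of 5 pairs of members within each control (circles) and anti-CD40 (diamonds) mouse, with group means as lines. The groups are separate for Acaa1b over Acaa1a, Acot1 over Acot2 and Decr1 over Decr2, and overlap for Hadha over Hadhb and Eci1 over Eci2.

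The members also varied among the control mice. Control mouse 4 was the lowest control in 19 of 31 members, as it was in 26.3% of all genes, and control mouse 11 was the highest in 17 of 31, as it was in 10.9% of all genes. The median deviation of the members from the control mean was -0.45 in control mouse 4 and 0.44 in control mouse 11, and -0.71, -0.69 and -0.55 in anti-CD40 mice 2, 5 and 9. On that median every anti-CD40 mouse was below every control mouse, and control mouse 4 came closest to them. In Acadm, Eci1, Etfa, Etfdh, Ehhadh, Acat1 and Pdk4, control mice 8 and 12 were the 2 lowest controls, a pattern of 7 of 31 members and 14.2% of all genes. Without those mice 18 members were called lower and 3 higher, while 21.4% and 23% of all genes were called.

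Other genes of the same pathways were counted from lists chosen by function, beside 21.7% of all genes lower and 23.5% higher. Of 24 tested genes of other mitochondrial oxidation steps, 16 were lower and 2 higher (median -1.08), among them Hsd17b10, a multifunctional dehydrogenase (-1.70, adjusted p = 1.71e-05), and Ivd, the isovaleryl-CoA dehydrogenase of leucine breakdown (-1.80, adjusted p = 6.45e-05). Of 24 other peroxisomal oxidation genes, 16 were lower and none higher (median -0.93), among them Pecr, a trans-enoyl-CoA reductase (-2.36, adjusted p = 5.2e-06), and Abcd2, a fatty acid transporter of the peroxisome (-1.79, adjusted p = 6.78e-06). Of 24 other uptake and activation genes, 9 were lower and 5 higher (median -0.33), among the lower ones the bile acid and fatty acid CoA ligase Slc27a5 (-1.94, adjusted p = 2.61e-06) and the acetate-activating Acss2 (-2.59, adjusted p = 5.64e-05).

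Neither PPARα itself nor its coactivator passed the test. Ppara was 11.9 ± 3.07 against 17.9 ± 6.95 FPKM (-0.51, adjusted p = 0.247) and its coactivator Ppargc1a 3.56 ± 1.78 against 2.66 ± 0.536 FPKM (0.31, adjusted p = 0.381). Of 33 regulators 12 were lower and 1 higher (median -0.06), beside 21.7% and 23.5% of all genes. The lower ones included the mitochondrial deacetylase Sirt3 (-1.24, adjusted p = 6.77e-06) and Klb, the coreceptor for FGF21 (-0.97, adjusted p = 0.000902). Of 22 tested PPARα targets outside the members, 8 were lower and 3 higher. The lipid droplet genes Plin2 (693 ± 98.7 against 292 ± 95.7 FPKM, 1.29, adjusted p = 0.0014) and Hilpda (86.3 ± 8.17 against 29.4 ± 3.83 FPKM, 1.56, adjusted p = 7.55e-06) were higher. Fitm1, another lipid droplet gene, was lower (3.00 ± 0.939 against 24.3 ± 10.7 FPKM, -2.83, adjusted p = 0.00094). The fatty aldehyde dehydrogenase Aldh3a2 was lower too (-1.46, adjusted p = 0.000325).

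Calls in neighbouring lists were mostly lower in the deposited scaling, where 21.7% of all genes were called lower and 23.5% higher. They numbered 6 lower and 3 higher of 14 lipolysis genes, 8 lower and 2 higher of 13 genes around pyruvate dehydrogenase, 9 lower and none higher of 17 citric acid cycle genes, 13 lower and 1 higher of 21 markers of mitochondrial mass, and 11 lower and none higher of 15 peroxisome biogenesis genes. The kinases of pyruvate dehydrogenase moved apart, with Pdk1 lower (-1.80, adjusted p = 2.11e-05) and Pdk3 higher (2.47, adjusted p = 8.31e-06) beside the higher Pdk4. The deposited locus of Pdk1 is wide (chr2:71389260-71903858), and whether other genes share it was not looked up, so its value is uncertain. Sdhb, the iron-sulfur subunit of succinate dehydrogenase, fell by 1.91 on the log2 scale (adjusted p = 4.99e-06).

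**Figure D5:**
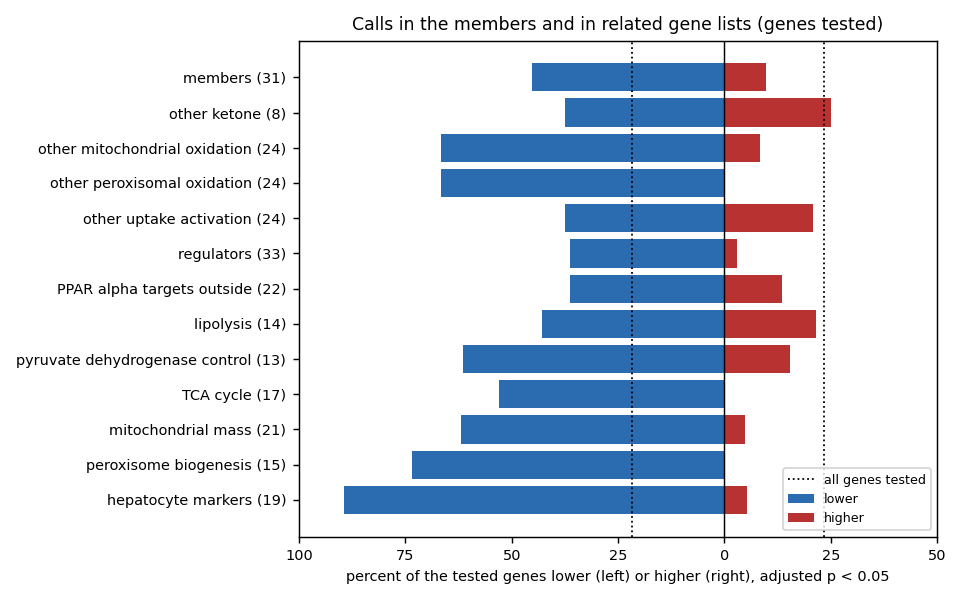
Percent of tested genes called lower (left, blue) and higher (right, red) among the members and the related lists, with the number tested in brackets and the share over all genes as dotted lines (21.7% and 23.5%). Other mitochondrial and peroxisomal oxidation, pyruvate dehydrogenase control, the citric acid (TCA) cycle, mitochondrial mass and peroxisome biogenesis show larger shares lower than the members (14 of 31), and hepatocyte markers the largest (17 of 19).

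Markers of hepatocytes, the cells that carry most of this pathway in liver, moved with the members. Of 19 hepatocyte markers 17 were lower and 1 higher, with a median of -0.997, and their summed level ran from 23281 to 29028 FPKM after anti-CD40 and from 53351 to 97291 FPKM in the controls. Alb, the albumin gene, was at 774 to 1075 FPKM against 4063 to 6626. Neutrophil markers rose in 7 of 7 tested, with sums of 4213 to 5200.4 FPKM against 18.3 to 156 FPKM. Of 8 monocyte and macrophage markers 6 were higher and 1 lower (sums of 285 to 401 against 45.3 to 80.5 FPKM). All 8 Kupffer cell markers fell (56.2 to 65.9 against 322 to 475 FPKM). The hepatocyte markers were thus present in all 9 livers. A fall of these markers in bulk RNA does not tell fewer hepatocytes from less of their RNA per hepatocyte. The part of these marker shifts in the members' values was not tested.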

How the data were processed

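Liver RNA of 9 mice, 3 anti-CD40 and 6 control, was sequenced from the 3′ end of mRNA (QuantSeq FWD, NextSeq 500). With STAR as aligner and mm10 as genome, the authors made and deposited 1 table of FPKM per gene and mouse by Cufflinks and Cuffdiff, in which no value is below 0.01. FPKM divides by gene length although 3′ reads do not depend on it, so the levels of named genes were compared within a gene only, and the split at 100 FPKM sorts genes by a value that carries this length term. The annotation is not given in the sources used here. Groups came from the sample titles.

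For 15 genes, members Acsl1 and Etfb included, Cuffdiff failed in at least 1 mouse. They were kept out and fitted separately with missing values. From the rest, log2(FPKM + 0.1) of the 13807 genes with a mean of at least 0.1 FPKM was fitted with limma 3.58.1 in R 4.3.3 (empirical Bayes with a trend, 2-sided, Benjamini-Hochberg over all genes tested). The fit was tested on simulated data of 13807 genes. It recovered 49% of 100 changes of 1 on the log2 scale and 92% of 100 changes of 2, and no other gene was changed. In the real data 6230 genes were called, which makes the adjusted p less strict than in the simulation. These shares are therefore not the recovery of the real fit, which was not measured. A member that was not called may still have changed. Single genes and pairs were also tested by exact permutation of 84 assignments (scipy 1.17.1). P-values set the difference between groups against the spread between these mice, each with its own library. In limma that spread is moderated toward a trend over all genes tested. Intervals do not cover depth, which FPKM does not give in absolute terms. Alternatives were other pseudocounts, filters, scalings and variance settings, a 2-fold rule and leaving out mice. Added after the data were seen were leaving out control mice 8 and 12, leaving out control mice 4 and 7, and keeping failed estimates as missing. Named genes were all 33 members and, from each related list, genes among the 4 largest called changes with no overlap, plus Ppara and Ppargc1a. Some genes named by that rule are not reported here. The markers Adipoq, Cfd, Cela3b and Alb were named after their values were seen. Members and lists were chosen with earlier results of these data known.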

Additional observations from a re-analysis of the deposited data

Results flagged for a closer look

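In 6 of 80 examined results, 1 control mouse stood apart from the other 5 by a gap that, as a share of the group's range, exceeded Dixon's 95% critical value for 6 values, where chance gives about 4. Control mouse 11 was highest in 3 members: Acot1 at 350.0 FPKM with the next control at 104 (0.758 of the range), Acot2 at 5.18 with the next at 3.07 (0.734), and Pdk4 at 2.07 with the next at 0.805 (0.654). Among related genes, Acss2 was 39.9 FPKM in control mouse 8 with the next control at 24.1 (0.652), Ces1f, a carboxylesterase, was 119 FPKM in control mouse 12 with the next at 143 (0.724), and Atg7, an autophagy gene, was 2.33 FPKM in control mouse 4 with the next at 3.84 (0.752).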

How the results depend on the processing

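No member called in the deposited scaling changed direction under any of the 23 alternatives, and 10 of the 17 called members stayed called in all 22 alternatives other than the 2-fold rule. With quantile normalization 9 of 31 members were lower, against 25% of all genes, and the median was -0.32 (-0.09 over all genes, so the members lay -0.23 from it). With the Saa genes left out 8 were lower (11.9% of all genes) and the median was -0.30. In the related lists 78 genes were then lower and 33 higher (111 and 19 as deposited), while 40.7% of all genes were higher. List medians then ran from -0.72 in other mitochondrial oxidation to 0.28 in the regulators, beside 0.35 over all genes. Requiring a 2-fold change left 8 members lower, and 61 lower and 10 higher genes in the related lists (111 and 19 without it). The share of all genes under that rule is not given here, so these counts are not compared with it. Cause was not tested. Leaving out 1 mouse gave 11 to 18 members lower, 2 to 4 higher, medians of -0.72 to -0.55, and 95 to 121 lower and 13 to 21 higher genes in the related lists. In the same fits 17% to 23.7% of all genes were called lower and 18% to 25.8% higher. Without a filter 12 members were lower and 2 higher, while 10.4% and 12.9% of all genes were called. Array weights gave 19 lower and 3 higher (25.8% and 27.7% of all genes), and failed estimates kept as missing 16 lower and 3 higher of 33 (21.7% and 23.5%). No paired analysis was possible because the mouse numbers of the 2 groups are not shared. Limits are 3 anti-CD40 mice, an unknown absolute depth, and 9 livers sampled once.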
